A study of Mus musculus with 90 samples.

Results

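The 6 genes described here, Fkbp5, Tsc22d3, Zbtb16, Sgk1, Errfi1 and Dusp1, are classical target genes of the glucocorticoid receptor (GR). They were chosen by name, with earlier results of these data known, and are 6 of 27654 genes. Ensembl identifiers in the deposited count tables were matched to their symbols. The deposited tables hold 90 libraries of polyA RNA from whole mouse liver. The study asked how caloric restriction, hepatocyte GR and the time of day shape hepatic gene expression. Time is given as zeitgeber time (ZT), with lights on at ZT0 and lights off at ZT12. A time series sampled WT and GRLKO livers every 4 h at 6 time points on each diet, and separate experiments compared diets and corticosterone (CORT) with its control in WT livers at ZT12.

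The mice were C57BL/6J males, 12 weeks old when the protocols began. GRLKO mice carried the genotype GRfl/fl x Alb-Cre, and the WT mice of the time series were GRfl/fl without Cre. In the diet and CORT experiments the labels give the mice as WT. Mice on caloric restriction received less food in weekly steps down to a reduction of 40% within a protocol of 8 weeks, with food given at ZT12. Mice on the control diet ate freely and for the last 7 days were fed at night only. The titles of the 3 control livers in the diet experiment abbreviate ad libitum feeding, whereas their treatment label is night-restricted feeding. CORT mice were injected with corticosterone at 5 mg/kg on 7 days and were fed at night. The hour of injection is given as ZT11 in the study's methods and as ZT12 elsewhere in the study, so the time from the last injection to sampling is not settled here. Their 3 controls carry only the label of night-restricted feeding, while the study's methods describe vehicle injections. The time series on caloric restriction held 3 livers per genotype and time point. For the control diet it held 3 per genotype at ZT0 and ZT4, 4 per genotype at ZT8 and ZT12, and 4 WT and 3 GRLKO livers at ZT16 and ZT20. Alb-Cre deletes the receptor gene in hepatocytes, whereas the samples are whole liver, so other liver cells keep the receptor and add to each value.

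Glucocorticoids are steroid hormones of the adrenal cortex, with corticosterone the main one in mice, and their level in blood rises before the active phase. The hormone releases GR from its chaperone complex in the cytoplasm, and the receptor then binds DNA as a transcription factor. In the liver, GR is known for raising genes of gluconeogenesis and amino acid breakdown, and in many tissues it raises a shared set of regulators of hormone, inflammatory and kinase signalling, to which the 6 members belong.

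Counts per library had a median of 17386700 on caloric restriction in the time series (14235473 to 20788575, n = 36) and 13427104 on the control diet (10057544 to 17089004, n = 42). The diet experiment had a median of 37407547 (36442195 to 39492146, n = 6) and the CORT experiment 14431389 (13739631 to 16077943, n = 6). In the time series each diet was deposited as its own set of libraries with its own run of library names, called a library batch here. Levels there are therefore compared within a diet, and a diet effect and a library batch cannot be told apart. Levels are in CPM, the count of a gene relative to the TMM-scaled total of its library, and differences are log2 fold changes from edgeR with their standard error (SE). A gene was called where the p-value adjusted over all genes tested was under 0.05. All 6 members passed the filter on low counts in each of the 27 comparisons, and the lowest count of a member in any library was 18.6, for Dusp1. CPM is not divided by transcript length, so levels are compared between samples for a gene and never between genes.

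In build GRCm38 the members lie on chromosomes 17 (28399094 to 28517527, minus strand) for Fkbp5 (ENSMUSG00000024222), X (140539528 to 140600659, minus strand) for Tsc22d3 (ENSMUSG00000031431) and 9 (48654297 to 48836222, minus strand) for Zbtb16 (ENSMUSG00000066687). Sgk1 (ENSMUSG00000019970) is on chromosome 10 (21882184 to 21999903, plus strand), Errfi1 (ENSMUSG00000028967) on 4 (150853919 to 150868892, plus strand) and Dusp1 (ENSMUSG00000024190) on 17 (26505590 to 26562128, minus strand). Fkbp5 and Dusp1 share a chromosome, and the other members each lie on a different chromosome. The annotated spans of Fkbp5, Errfi1 and Dusp1 overlap a gene on the opposite strand, and the reads of such pairs cannot be told apart where the strand was not used in quantification, which is not given in the sources used here.

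Nr3c1, which encodes GR, is the gene deleted in GRLKO hepatocytes. At ZT12 on caloric restriction, Nr3c1 stood at 102, 98.0 and 104 CPM in the 3 WT livers and at 31.0, 32.2 and 30.8 CPM in the 3 GRLKO livers. Control-diet livers at ZT12 stood at 83.3, 87.9, 75.5 and 89.1 CPM in WT and 18.7, 20.9, 20.4 and 25.2 CPM in GRLKO livers. Every GRLKO liver was below every WT liver in each of the 12 genotype comparisons, and the log2 fold change ran from -2.06 to -1.70 with adjusted p from 9.57e-06 to 0.00309. Whether the remaining Nr3c1 transcript came from other liver cells or from hepatocytes was not tested, and in whole liver fewer cells of a type and less RNA per cell cannot be told apart. By edgeR, neither treatment of WT mice was called for Nr3c1 in its own experiment, and the ZT12 WT livers of the time series, where diet coincides with library batch, gave a call in the opposite direction for diet (0.25, adjusted p 0.0328). In the diet experiment it stood at 88.3, 90.1 and 95.9 CPM in controls and 84.5, 88.4 and 86.5 CPM on caloric restriction (log2 fold change -0.08, SE 0.06, adjusted p 0.317, 95% confidence interval -0.23 to 0.07). In the CORT experiment it stood at 74.3, 77.4 and 69.1 CPM in controls and 61.8, 83.3 and 66.3 CPM with CORT (log2 fold change -0.06, SE 0.13, adjusted p 0.808, 95% confidence interval -0.36 to 0.24). The groups overlapped in both.

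The diet experiment asks what caloric restriction does to the liver at the onset of the dark phase. All 6 members were called, each of them up, where 47.1% of all 13062 genes tested were called in either direction. Their median log2 fold change was 2.01, beside a median of 0.00 over all genes. Groups did not overlap for any of the 6, as for 59.0% of all genes tested. The CORT experiment asks what injected hormone does at the same hour without less food. All 6 members were called up there as well, where 8.11% of 11523 genes tested were called. That share rests on 935 genes, and with single livers left out the number ran from 206 to 1008. The median of the 6 was 2.10, beside -0.01 over all genes, and again no member overlapped between groups (32.8% of all genes). The difference between the CORT and the caloric restriction effect was tested as an interaction over the 12 libraries of both experiments, a comparison added after the data had been seen. It was called for 1 member, Errfi1, where 22.5% of all genes were called.

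The genotype comparisons ask which differences depend on hepatocyte GR at each time of day. On caloric restriction, edgeR called 0 members at ZT0 (0.502% of all genes tested), 1 at ZT4 (0.690%), 3 at ZT8 (2.55%), 4 at ZT12 (15.3%), 1 at ZT16 (4.54%) and 0 at ZT20 (1.47%). Each called member was lower in GRLKO. At an unadjusted p under 0.05 there were 3 members at ZT0 and 4 at ZT20, among 1606 and 2340 of all genes, and DESeq2 called 2 members at ZT0 and 2 at ZT20, among 439 and 663 of all genes (61 and 178 by edgeR). On the control diet, edgeR called 0 members at ZT0 (0.536%), 0 at ZT4 (0.195%), 0 at ZT8 (1.43%), 4 at ZT12 (2.08%), 3 at ZT16 (1.98%) and 0 at ZT20 (0.420%), and each of those called was again lower in GRLKO. For the time points with 0, the members at an unadjusted p under 0.05 numbered 2 at ZT0, 1 at ZT4, 3 at ZT8 and 3 at ZT20, among 1798, 1152, 1301 and 1346 of all genes. DESeq2 called 1, 0, 0 and 1 members there, among 411, 191, 362 and 298 of all genes (63, 23, 166 and 50 by edgeR). With single livers left out, the genes called by edgeR on caloric restriction numbered 1 to 103 at ZT0, 899 to 1329 at ZT12 and 234 to 346 at ZT16. With all livers 1795 were called at ZT12 and 541 at ZT16. On the control diet the same runs called 3 to 81 at ZT0, 1 to 13 at ZT4, 56 to 160 at ZT8 and 12 to 48 at ZT20. From ZT0 to ZT20, genotypes did not overlap for 3, 3, 4, 4, 3 and 4 members on caloric restriction. Of all genes tested, 20.3%, 21.4%, 24.7%, 36.8%, 25.2% and 27.2% did not overlap there. On the control diet it was 2, 1, 1, 4, 5 and 3 members, beside 22.3%, 15.97%, 7.35%, 8.46%, 16.7% and 11.9% of all genes. The median log2 fold change of the 6 members was lowest at ZT12 on both diets, at -1.72 on caloric restriction and -1.37 on the control diet, beside 0.00 and 0.00 over all genes.

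**Figure D1:**
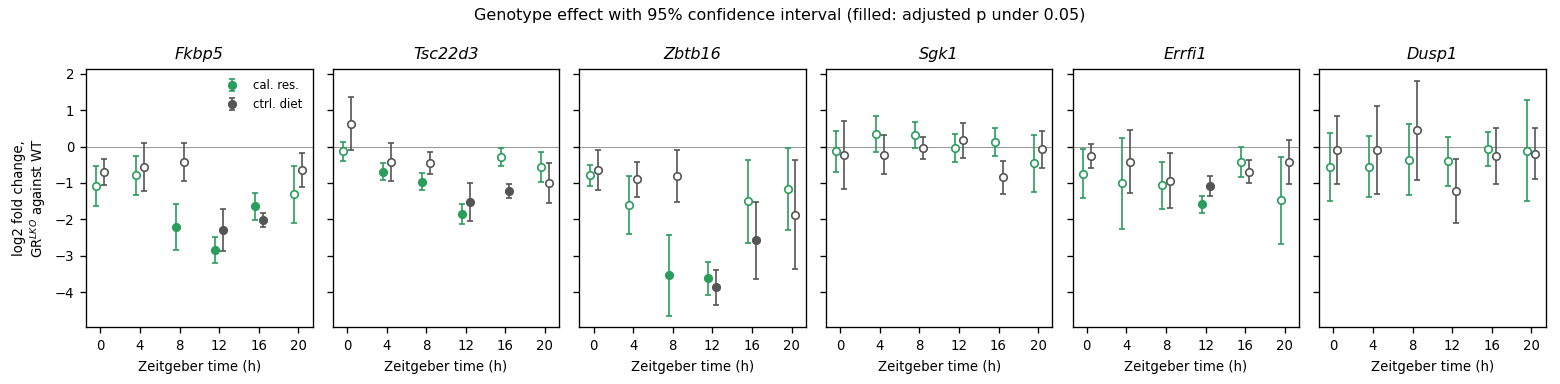
Log2 fold change of GRLKO against WT livers for each member (vertical axis) at each zeitgeber time in h (horizontal axis), with 95% confidence intervals as bars, on caloric restriction (green) and the control diet (grey), with filled points where the adjusted p was under 0.05. The lowest points of Fkbp5, Tsc22d3 and Errfi1 lie at ZT12 on both diets, and the points of Sgk1 lie between -0.85 and 0.35.

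Whether the genotype effect differed between the diets was tested at each time point as an interaction, from which the level of each diet's batch drops out. The interaction was called by edgeR for 0 members at ZT0 (0% of all genes), 0 at ZT4 (0%), 0 at ZT8 (0.0810%), 0 at ZT12 (1.01%), 1 at ZT16 (0.234%) and 0 at ZT20 (0%). Members at an unadjusted p under 0.05 numbered 0 at ZT0, 0 at ZT4, 3 at ZT8, 1 at ZT12 and 0 at ZT20, among 1266, 746, 1043, 1742 and 878 of all genes. DESeq2 called 2 members at ZT8, Fkbp5 and Zbtb16, and 0 at ZT0, ZT4, ZT12 and ZT20. Of all genes DESeq2 called 119 at ZT8 (10 by edgeR), and 154, 38, 477 and 48 at the other hours in that order.

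Time of day was tested in each series as any difference among the 6 time points. All 6 members were called in WT on caloric restriction (64.3% of all genes), in GRLKO on caloric restriction (60.5%) and in WT on the control diet (50%), and 4 in GRLKO on the control diet (42.0%). Since most genes were called in the first 3 series, the size of the change says more than the count. The median over the members of the log2 difference between the highest and the lowest time point was 2.46 in WT and 1.66 in GRLKO on caloric restriction, beside 0.76 and 0.76 over all genes tested. The control diet gave 2.39 in WT and 1.08 in GRLKO, beside 0.57 and 0.58. Whether the genotype effect changed over the day was called for 3 members on caloric restriction (5.34% of all genes) and for the same 3, Fkbp5, Tsc22d3 and Zbtb16, on the control diet (0.600%). With a replicate number left out of all time points, 1 to 2 and 0 to 2 of them were called, and with a 24-h cosine 1 and 2.

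**Figure D2:**
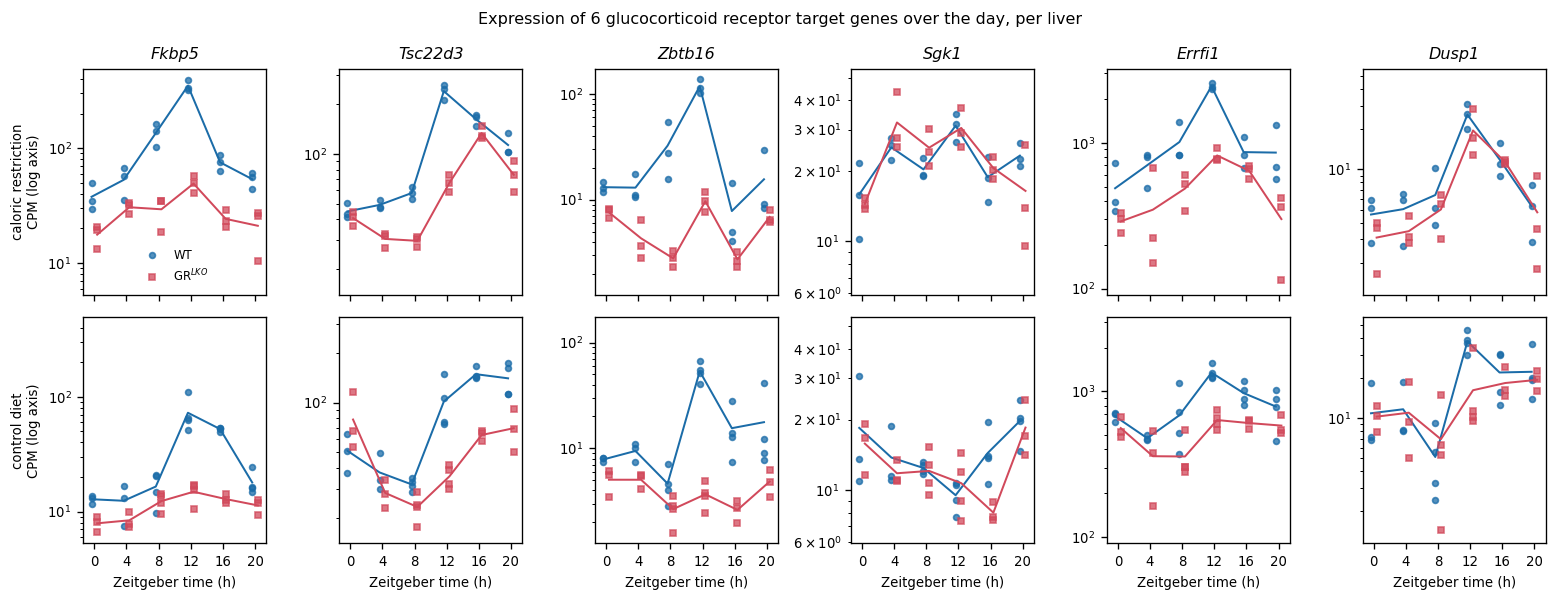
Level of each member in CPM (vertical log axis) against zeitgeber time in h (horizontal axis), with points for single livers and lines through group means, WT in blue and GRLKO in red, on caloric restriction (upper panels) and the control diet (lower panels). WT livers on caloric restriction reached 333, 321 and 392 CPM of Fkbp5 at ZT12, and GRLKO livers 57.4, 49.2 and 40.7 CPM.

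Fkbp5 encodes a co-chaperone of HSP90 that lowers the hormone affinity of GR and so closes a short feedback loop. In the diet experiment it stood at 45.8, 57.9 and 89.1 CPM in the 3 control livers and at 313, 378 and 302 CPM in the 3 on caloric restriction (log2 fold change 2.36, SE 0.24, adjusted p 4.90e-04). The lowest restricted liver was above the highest control by a wide margin, and the controls spread more in proportion. In the CORT experiment it stood at 52.9, 41.6 and 19.8 CPM in controls and 217, 292 and 199 CPM with CORT (log2 fold change 2.63, SE 0.35, adjusted p 0.00797). All 3 CORT livers again lay above all 3 controls, of which the third was the lowest. The CORT effect exceeded the caloric restriction effect by 0.26 on the log2 scale (SE 0.45, 95% confidence interval -0.72 to 1.24, adjusted p 0.721), a difference that was not called.

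At ZT12 on caloric restriction, Fkbp5 stood at 333, 321 and 392 CPM in WT and 57.4, 49.2 and 40.7 CPM in GRLKO livers (log2 fold change -2.84, SE 0.15, adjusted p 1.44e-04). Control-diet livers at the same hour had 63.3, 64.8, 51.2 and 111 CPM in WT and 16.9, 16.8, 15.3 and 10.6 CPM in GRLKO livers (log2 fold change -2.29, SE 0.25, adjusted p 0.00224). Genotypes did not overlap on either diet, as for 36.8% of all genes tested on caloric restriction and 8.46% on the control diet. The fourth WT liver on the control diet was the highest of its group. The difference between these genotype effects was -0.53 (SE 0.33, 95% confidence interval -1.24 to 0.17, adjusted p 0.500). At ZT16 Fkbp5 stood at 53.2, 49.8, 53.7 and 52.8 CPM in WT and 12.5, 14.3 and 11.8 CPM in GRLKO livers on the control diet (log2 fold change -2.03, SE 0.08, adjusted p 8.67e-05). Among the WT livers there the spread was small, and Fkbp5 had the lowest p-value of all genes tested in that comparison. On caloric restriction at ZT16 the levels were 75.8, 86.8 and 63.2 and 20.6, 28.9 and 23.2 CPM (log2 fold change -1.64, SE 0.16, adjusted p 0.00232), again without overlap, as for 25.2% of all genes tested. At ZT8 on caloric restriction they were 102, 163 and 140.4 CPM in WT and 34.97, 34.3 and 18.8 CPM in GRLKO (log2 fold change -2.20, SE 0.27, adjusted p 0.0101). That call was lost without GRLKO replicate 1 (log2 fold change -2.35, adjusted p 0.0548) or GRLKO replicate 2 (-2.32, adjusted p 0.0529), though the groups stayed apart. Genotypes overlapped at ZT8 on the control diet, at 20.6, 9.73, 21.0 and 14.9 CPM in WT and 13.7, 9.62, 11.9 and 14.1 CPM in GRLKO (log2 fold change -0.42, SE 0.23, adjusted p 0.568), and the interaction with diet at ZT8 was -1.78 (SE 0.38, adjusted p 0.126).

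At ZT0, ZT4 and ZT20 the Fkbp5 genotype effect was not called by edgeR on either diet and ran from -1.31 at ZT20 on caloric restriction to -0.57 at ZT4 on the control diet. DESeq2 called it on caloric restriction at ZT0 (adjusted p 2.44e-04), ZT4 (0.0182) and ZT20 (6.97e-04) and on the control diet at ZT0 (0.0457), and a single edgeR fit of all libraries of the diet called it at ZT20 on caloric restriction (0.00518). By edgeR it was called on caloric restriction at ZT4 without WT replicate 3 (-1.01, adjusted p 0.0319) and at ZT20 without GRLKO replicate 3 (-0.99, adjusted p 0.0423). In WT on caloric restriction Fkbp5 averaged 37.7 ± 10.3 at ZT0, 53.0 ± 16.1 at ZT4, 135 ± 30.9 at ZT8, 349 ± 38.0 at ZT12, 75.3 ± 11.8 at ZT16 and 53.7 ± 8.35 at ZT20 (mean CPM ± SD, n = 3 each), a 9.25-fold span between group means (adjusted p 1.70e-07). ZT12, ZT8 and ZT16 each stood clear of the next lower level, while ZT20, ZT4 and ZT0 overlapped their neighbours. In GRLKO on caloric restriction it averaged 17.7 ± 3.96 at ZT0, 30.6 ± 3.505 at ZT4, 29.4 ± 9.17 at ZT8, 49.1 ± 8.38 at ZT12, 24.2 ± 4.23 at ZT16 and 21.1 ± 9.28 at ZT20 (adjusted p 0.00651). ZT12 was still the highest and stood clear of the next level, ZT4, and the other neighbours overlapped. Fed the control diet, WT livers averaged 12.8 ± 1.14 at ZT0, 12.4 ± 4.62 at ZT4, 16.5 ± 5.33 at ZT8, 72.6 ± 26.3 at ZT12, 52.4 ± 1.76 at ZT16 and 18.0 ± 4.34 at ZT20 (adjusted p 2.37e-07), and GRLKO livers 7.92 ± 1.19 at ZT0, 8.41 ± 1.42 at ZT4, 12.4 ± 2.07 at ZT8, 14.9 ± 2.98 at ZT12, 12.9 ± 1.28 at ZT16 and 11.3 ± 1.73 at ZT20 (adjusted p 0.00353). In WT the levels at ZT12 and ZT16 overlapped each other and stood clear of the rest, and in GRLKO all neighbouring levels overlapped.

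For Fkbp5, the genotype effect differed over the day by up to 2.04 on caloric restriction (adjusted p 0.0105) and 1.87 on the control diet (adjusted p 0.00168). When the libraries of a given replicate number were left out of all time points together, the first of these was no longer called without number 1 (adjusted p 0.0786), 2 (0.202) or 3 (0.150). The second was lost without number 1 (0.0836) or 2 (0.0838) and held without 3 or 4. With a 24-h cosine in place of free time points the first was not called (0.0660). The time effect in GRLKO was lost without number 1 (0.141) or 2 (0.0664) on caloric restriction and without number 1 (0.134) or 2 (0.0541) on the control diet, while in WT it was called in each such run.

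**Figure D3:**
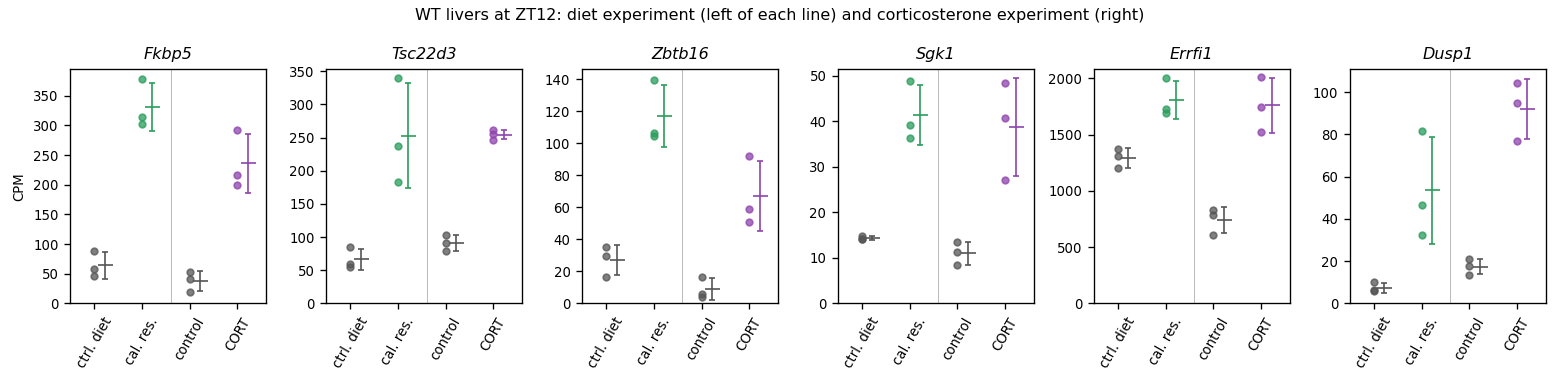
Level of each member in CPM (vertical axis) in single WT livers at ZT12, with the diet experiment left of each dividing line and the CORT experiment right of it, and the group mean with its SD beside the points (n = 3 per group). For each member the treated livers lie above the control livers of the same experiment, as for Dusp1 at 32.4, 46.8 and 81.5 CPM on caloric restriction against 6.44, 5.72 and 10.3 CPM.

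Tsc22d3 encodes the leucine zipper protein GILZ, which binds inflammatory transcription factors and dampens them. It stood at 55.4, 59.7 and 84.7 CPM in the controls of the diet experiment and 339, 237 and 182 CPM on caloric restriction (log2 fold change 1.92, SE 0.25, adjusted p 0.00125). The restricted livers spread widely, and the lowest was still above the highest control. With CORT the level was 261, 247 and 255 CPM, against 104, 78.7 and 90.5 CPM in controls (log2 fold change 1.48, SE 0.12, adjusted p 0.00141). These CORT livers lay close together and apart from the controls. The CORT effect less the caloric restriction effect was -0.46 (SE 0.29, 95% confidence interval -1.10 to 0.19, adjusted p 0.298).

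On caloric restriction at ZT12, Tsc22d3 stood at 212, 246 and 263 CPM in WT and 59.1, 74.5 and 66.6 CPM in GRLKO livers (log2 fold change -1.86, SE 0.12, adjusted p 2.72e-04). The control diet gave 149, 107, 74.4 and 75.7 CPM in WT and 41.8, 30.0, 32.0 and 38.9 CPM in GRLKO livers at that hour (log2 fold change -1.51, SE 0.23, adjusted p 0.0115). All GRLKO livers were below all WT livers on both diets, where 36.8% of all genes did not overlap on caloric restriction and 8.46% on the control diet. The interaction with diet was -0.33 (95% confidence interval -0.97 to 0.31, adjusted p 0.674). By ZT16 the diets parted. On caloric restriction the levels at ZT16 were 172, 167 and 148 CPM in WT and 125, 128 and 148 CPM in GRLKO (log2 fold change -0.28, SE 0.10, adjusted p 0.185). On the control diet they were 167, 142, 139.9 and 145 CPM in WT and 58.2, 65.0 and 67.3 CPM in GRLKO (log2 fold change -1.23, SE 0.09, adjusted p 0.00195). The highest GRLKO liver on caloric restriction reached the lowest WT liver to within rounding, whereas on the control diet the gap was wide. The interaction of 0.94 (SE 0.13, 95% confidence interval 0.65 to 1.24, adjusted p 0.0141) was the only genotype by diet term called for a member at any of the 6 time points by edgeR, and it was called with each of the 13 libraries left out in turn. With the replicate number as a block it was not called (0.95, adjusted p 0.101).

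Earlier in the day the effect of genotype on Tsc22d3 was smaller. At ZT8 on caloric restriction it stood at 53.2, 62.6 and 57.8 CPM in WT and 31.3, 27.2 and 30.5 CPM in GRLKO livers (log2 fold change -0.96, SE 0.10, adjusted p 0.00598), and at ZT4 at 47.0, 47.7 and 52.5 and 27.0, 31.8 and 32.7 CPM (log2 fold change -0.69, SE 0.10, adjusted p 0.0360). Genotypes did not overlap at either hour, as for 24.7% of all genes tested at ZT8 and 21.4% at ZT4. The interaction with diet was -0.50 at ZT8 (SE 0.18, adjusted p 0.458) and -0.28 at ZT4 (SE 0.26, adjusted p 0.905). The call at ZT4 was lost whichever library was left out: without WT replicate 1 the adjusted p was 0.0821, without WT replicate 2 0.138 and without WT replicate 3 0.0677, and without GRLKO replicates 1, 2 and 3 in turn it was 0.0833, 0.158 and 0.0887. It was also lost with the replicate number as a block (0.106). At ZT0 the genotypes overlapped on both diets, with 64.7, 50.7 and 37.5 CPM in WT and 66.8, 116 and 53.8 CPM in GRLKO on the control diet (log2 fold change 0.63, SE 0.31, adjusted p 0.380). There the GRLKO mean was above the WT mean, and 1 GRLKO liver stood far above the others. At ZT20 GRLKO livers were below all WT livers on both diets, with log2 fold changes of -0.57 on caloric restriction (adjusted p 0.152) and -1.004 on the control diet (adjusted p 0.166). Of all genes tested, 27.2% and 11.9% did not overlap there. EdgeR called neither, and DESeq2 called both (adjusted p 0.0352 and 0.00297), as did a single fit of all libraries of the diet (0.00729 and 0.0178).

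Over the day, Tsc22d3 averaged 44.8 ± 4.77 at ZT0, 49.0 ± 3.01 at ZT4, 57.9 ± 4.70 at ZT8, 240.2 ± 25.7 at ZT12, 162 ± 12.5 at ZT16 and 113 ± 18.1 at ZT20 CPM in WT on caloric restriction (mean ± SD, adjusted p 3.25e-09). ZT12, ZT16, ZT20 and ZT8 each stood clear of the next lower level, and ZT4 and ZT0 overlapped. GRLKO livers averaged 40.8 ± 4.13 at ZT0, 30.5 ± 3.10 at ZT4, 29.7 ± 2.18 at ZT8, 66.7 ± 7.71 at ZT12, 134 ± 12.5 at ZT16 and 74.7 ± 16.1 at ZT20 (adjusted p 4.19e-08). Their highest level was thus at ZT16, clear of ZT20, and ZT20 overlapped ZT12. WT livers on the control diet averaged 51.0 ± 13.6 at ZT0, 37.7 ± 10.2 at ZT4, 31.9 ± 2.51 at ZT8, 101 ± 34.9 at ZT12, 149 ± 12.4 at ZT16 and 140.2 ± 32.1 at ZT20 (adjusted p 2.65e-07) and GRLKO 78.8 ± 32.7 at ZT0, 28.3 ± 5.62 at ZT4, 23.3 ± 4.52 at ZT8, 35.7 ± 5.60 at ZT12, 63.5 ± 4.72 at ZT16 and 69.9 ± 20.4 at ZT20 (adjusted p 5.39e-05). WT levels at ZT16, ZT20 and ZT12 overlapped their neighbours and stood clear of ZT0, ZT4 and ZT8. In GRLKO the highest mean was at ZT0. GRLKO levels at ZT0, ZT20 and ZT16 overlapped each other and stood clear of ZT12, ZT4 and ZT8. The genotype effect differed over the day by up to 1.71 on caloric restriction (adjusted p 1.20e-05), which held without any replicate number, and 2.16 on the control diet (adjusted p 0.00844). The latter was lost without number 1 (adjusted p 0.0510), 2 (0.443) or 3 (0.0734).

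Zbtb16 encodes PLZF, a zinc finger protein with a BTB domain that represses transcription. In the diet experiment it stood at 16.6, 35.3 and 29.5 CPM in controls and 139.6, 105 and 107 CPM on caloric restriction (log2 fold change 2.11, SE 0.27, adjusted p 0.00105). No control liver came near the lowest restricted liver. In the CORT experiment it stood at 16.6, 5.97 and 4.31 CPM in controls and 50.8, 91.8 and 58.9 CPM with CORT (log2 fold change 2.92, SE 0.49, adjusted p 0.0173). The first control was the highest of its group and still below every CORT liver. Without control replicate 2 the CORT effect was 2.69 and no longer called (adjusted p 0.0815), and without control replicate 1 it was 3.70. The CORT effect less the caloric restriction effect was 0.80 (SE 0.59, 95% confidence interval -0.49 to 2.10, adjusted p 0.362), and without CORT-experiment control replicate 1 it was 1.59 and called (adjusted p 0.0418).

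The genotype effect at ZT12 was larger for Zbtb16 than for the other 5 members on both diets. On caloric restriction it stood at 138, 103 and 113 CPM in WT and 11.7, 7.57 and 9.73 CPM in GRLKO livers (log2 fold change -3.62, SE 0.19, adjusted p 1.44e-04). With the control diet WT livers had 40.6, 55.2, 66.6 and 51.5 CPM and GRLKO livers 3.78, 4.89, 2.47 and 3.57 CPM (log2 fold change -3.86, SE 0.21, adjusted p 5.05e-05). Genotypes lay far apart on both, where 36.8% of all genes did not overlap on caloric restriction and 8.46% on the control diet. The interaction with diet was 0.25 (95% confidence interval -0.39 to 0.89, adjusted p 0.771). At ZT8 on caloric restriction the levels were 27.5, 54.1 and 15.7 CPM in WT and 2.81, 3.24 and 2.32 CPM in GRLKO (log2 fold change -3.53, SE 0.47, adjusted p 0.0130). The WT livers varied severalfold there, with replicate 2 the highest, and without it the effect was -2.94. The call was lost without GRLKO replicate 1 (adjusted p 0.0785), 2 (0.0653) or 3 (0.0721). At ZT8 on the control diet the levels overlapped at 7.13, 2.86, 4.00 and 4.55 CPM in WT and 1.58, 3.56, 2.84 and 2.67 CPM in GRLKO (log2 fold change -0.80, SE 0.32, adjusted p 0.378). The interaction with diet at ZT8 was -2.72 (SE 0.58, adjusted p 0.123), and it was called without WT replicate 3 on caloric restriction (-3.05, adjusted p 0.0470).

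At ZT16 Zbtb16 stood at 13.9, 28.0, 7.42 and 12.7 CPM in WT and 2.72, 3.18 and 1.95 CPM in GRLKO livers on the control diet (log2 fold change -2.57, SE 0.46, adjusted p 0.0356). The second WT liver was the highest, and no GRLKO liver reached the lowest WT liver. This call was lost without WT replicate 1 (adjusted p 0.0605), WT replicate 4 (0.0687) or GRLKO replicate 1 (0.117), 2 (0.106) or 3 (0.118), and with the replicate number as a block (0.0543). On caloric restriction at ZT16 the levels were 4.98, 14.4 and 4.05 CPM in WT and 3.24, 2.32 and 2.63 CPM in GRLKO (log2 fold change -1.51, SE 0.49, adjusted p 0.143), and the interaction with diet was 1.06 (95% confidence interval -0.53 to 2.65, adjusted p 0.656). GRLKO livers were also below all WT livers at ZT0, ZT4 and ZT20 on both diets, with log2 fold changes from -1.87 to -0.63 and no call by edgeR. Of all genes tested, 20.3%, 21.4% and 27.2% did not overlap between genotypes at these hours on caloric restriction and 22.3%, 15.97% and 11.9% on the control diet. DESeq2 called Zbtb16 on caloric restriction at ZT0 (adjusted p 0.00138), ZT4 (4.67e-04) and ZT16 (0.0211), and a single fit of all libraries of the diet called it at ZT20 on the control diet (0.0133).

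WT livers on caloric restriction averaged 13.1 ± 1.36 at ZT0, 12.998 ± 3.81 at ZT4, 32.4 ± 19.7 at ZT8, 118 ± 18.1 at ZT12, 7.81 ± 5.73 at ZT16 and 15.6 ± 11.9 at ZT20 CPM of Zbtb16 (mean ± SD), a 15.1-fold span (adjusted p 4.40e-05). ZT12 stood clear of ZT8, and all lower neighbours overlapped. The log2 difference between the highest and the lowest time point was 3.95, and 4.79 without replicate number 2. GRLKO livers on this diet averaged 7.58 ± 0.816 at ZT0, 4.31 ± 1.89 at ZT4, 2.79 ± 0.462 at ZT8, 9.67 ± 2.08 at ZT12, 2.73 ± 0.465 at ZT16 and 6.87 ± 0.999 at ZT20 (adjusted p 6.21e-05), with overlap between all neighbours, and a 24-h cosine in place of free time points did not call this series (adjusted p 0.697). Averages on the control diet were 7.85 ± 0.318 at ZT0, 9.45 ± 1.85 at ZT4, 4.64 ± 1.81 at ZT8, 53.5 ± 10.7 at ZT12, 15.5 ± 8.78 at ZT16 and 17.7 ± 16.1 at ZT20 in WT (adjusted p 4.31e-05) and 5.05 ± 1.42 at ZT0, 5.05 ± 0.825 at ZT4, 2.67 ± 0.817 at ZT8, 3.68 ± 0.992 at ZT12, 2.62 ± 0.619 at ZT16 and 4.85 ± 1.42 at ZT20 in GRLKO (adjusted p 0.0277). In WT the ZT12 level overlapped that at ZT20 because of a single high ZT20 liver, and ZT8 was the lowest and clear of ZT0, while in GRLKO all neighbours overlapped. The GRLKO call on the control diet was lost without replicate number 1 (adjusted p 0.176), 3 (0.139) or 4 (0.0678), and with the replicate number as a block (0.0585). The genotype effect differed over the day by up to 2.82 on caloric restriction (adjusted p 0.00800) and 3.24 on the control diet (adjusted p 0.00906). The first was lost without number 1 (adjusted p 0.165), and the second without number 2 (0.196), 3 (0.188) or 4 (0.0615). With the cosine neither was called (0.132 and 0.0947).

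Sgk1 encodes a serine/threonine kinase downstream of phosphoinositide signalling that acts on ion channels and transporters. It stood at 14.2, 14.2 and 14.8 CPM in the controls of the diet experiment and 36.4, 39.1 and 48.8 CPM on caloric restriction (log2 fold change 1.52, SE 0.12, adjusted p 2.12e-04). The controls were nearly alike, and all restricted livers were well above them. CORT livers had 48.3, 40.7 and 27.1 CPM and their controls 11.2, 8.39 and 13.5 CPM (log2 fold change 1.81, SE 0.25, adjusted p 0.0101), without overlap. The CORT effect less the caloric restriction effect was 0.27 (95% confidence interval -0.39 to 0.93, adjusted p 0.558). Unlike for the members above, edgeR called no genotype effect on Sgk1 at any hour on either diet, and DESeq2 called the effect at ZT16 on the control diet (log2 fold change -0.85, adjusted p 0.00936). At ZT12 on caloric restriction, Sgk1 stood at 26.6, 35.1 and 31.9 CPM in WT and 29.0, 25.2 and 37.3 CPM in GRLKO livers (log2 fold change -0.04, SE 0.16, adjusted p 0.888, 95% confidence interval -0.42 to 0.34). At that hour the control diet gave 10.7, 9.09, 7.69 and 10.6 CPM in WT and 14.5, 8.99, 7.41 and 12.0 CPM in GRLKO livers (log2 fold change 0.17, SE 0.21, adjusted p 0.835, 95% confidence interval -0.31 to 0.64). Genotypes overlapped on both diets, and the intervals leave out a fall as large as that of Fkbp5, Tsc22d3, Zbtb16 or Errfi1 on the same diet.

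The lowest Sgk1 genotype effect was at ZT16 on the control diet, with 13.9, 19.4, 10.6 and 13.7 CPM in WT and 8.92, 7.47 and 7.66 CPM in GRLKO livers (log2 fold change -0.85, SE 0.20, adjusted p 0.0800). All GRLKO livers were below all WT livers there, and genotypes did not overlap for 16.7% of all genes tested. Without WT replicate 3 the Sgk1 effect was -0.97 and called (adjusted p 0.0408). On caloric restriction at ZT16 the genotypes overlapped at 23.0, 18.7 and 14.8 CPM in WT and 18.5, 20.2 and 22.9 CPM in GRLKO (log2 fold change 0.12, SE 0.17, adjusted p 0.761), and the interaction with diet was 0.97 (SE 0.28, 95% confidence interval 0.36 to 1.58, adjusted p 0.236), with an unadjusted p of 0.00453. At the other hours the genotypes overlapped on both diets. Over the day, WT livers on caloric restriction averaged 15.9 ± 5.65 at ZT0, 25.2 ± 2.75 at ZT4, 20.3 ± 2.10 at ZT8, 31.2 ± 4.32 at ZT12, 18.8 ± 4.10 at ZT16 and 23.3 ± 2.71 at ZT20 CPM (mean ± SD, adjusted p 0.0115), and GRLKO livers 14.5 ± 0.767 at ZT0, 32.2 ± 9.99 at ZT4, 25.1 ± 4.74 at ZT8, 30.5 ± 6.18 at ZT12, 20.6 ± 2.21 at ZT16 and 16.4 ± 8.36 at ZT20 (adjusted p 0.0113). All neighbouring levels overlapped in both. On the control diet the averages were 18.4 ± 10.8 at ZT0, 13.8 ± 4.30 at ZT4, 12.4 ± 0.674 at ZT8, 9.51 ± 1.41 at ZT12, 14.4 ± 3.69 at ZT16 and 19.7 ± 3.92 at ZT20 in WT (adjusted p 0.0274) and 15.8 ± 3.80 at ZT0, 11.8 ± 1.39 at ZT4, 12.1 ± 2.51 at ZT8, 10.7 ± 3.13 at ZT12, 8.01 ± 0.790 at ZT16 and 18.5 ± 5.26 at ZT20 in GRLKO (adjusted p 0.00950). WT livers had their lowest level at ZT12, clear of ZT8, and their highest at ZT20, and in GRLKO all neighbours overlapped. The span between time points was small, 1.96-fold in WT on caloric restriction and 2.07-fold on the control diet. The time call was lost in WT on caloric restriction without replicate number 2 (log2 difference 0.64, adjusted p 0.0753) or 3 (adjusted p 0.201), and on the control diet without 1 (0.0706) or 4 (0.115). It was also lost in WT with a 24-h cosine on caloric restriction (0.228) and with the replicate number as a block on the control diet (0.0516). In GRLKO it was lost without number 2 (0.0582) or 3 (0.227) on caloric restriction and without 1 (0.0513) or 2 (0.142) on the control diet. Whether the genotype effect changed over the day was not called (adjusted p 0.544 and 0.699).

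Errfi1 encodes MIG6, an inhibitor that binds the kinase domain of the EGF receptor. It had the smallest caloric restriction effect of the 6 members, at 1375, 1201 and 1308 CPM in controls and 1694, 1722 and 2004 CPM on the restricted diet (log2 fold change 0.48, SE 0.10, adjusted p 0.00644). The groups still did not overlap, and the spread within each was narrow. In the CORT experiment it stood at 826, 789 and 612 CPM in controls and 1523, 2013 and 1745 CPM with CORT (log2 fold change 1.245, SE 0.16, adjusted p 0.00687). The CORT livers lay above all controls. The CORT effect exceeded the caloric restriction effect by 0.75 (SE 0.19, 95% confidence interval 0.33 to 1.17, adjusted p 0.0175), and this was called with each of the 12 libraries left out in turn. Each effect is taken within its own experiment, and the experiments were separate sets of libraries of different depth, so a difference between the treatments and other differences between the experiments cannot be told apart.

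At ZT12, Errfi1 stood at 2336, 2573 and 2414 CPM in WT and 758, 919 and 779.9 CPM in GRLKO livers on caloric restriction (log2 fold change -1.59, SE 0.10, adjusted p 2.40e-04). WT livers on the control diet had 1228, 1253, 1339 and 1560.2 CPM and GRLKO livers 747, 596, 541 and 662 CPM (log2 fold change -1.09, SE 0.12, adjusted p 0.00208). All GRLKO livers were below all WT livers on both, where 36.8% of all genes did not overlap on caloric restriction and 8.46% on the control diet. The interaction with diet was -0.48 (SE 0.16, 95% confidence interval -0.84 to -0.13, adjusted p 0.195), with an unadjusted p of 0.0114. At the other hours no genotype effect was called by edgeR, with log2 fold changes from -1.48 at ZT20 on caloric restriction to -0.27 at ZT0 on the control diet. At ZT16 on the control diet the levels were 883, 1023, 1188 and 803 CPM in WT and 555, 637 and 628 CPM in GRLKO (log2 fold change -0.69, SE 0.14, adjusted p 0.0520). These groups did not overlap, as for 16.7% of all genes tested there. DESeq2 called the effect (adjusted p 5.17e-05), as did edgeR without the filter on low counts (0.0494). A single edgeR fit of all libraries of the diet called Errfi1 at ZT20 on caloric restriction (0.0334). At ZT8 the genotypes stood apart on caloric restriction, as for 24.7% of all genes tested, at 823, 1383 and 829.7 CPM in WT and 598, 520.1 and 338 CPM in GRLKO (log2 fold change -1.06, SE 0.28, adjusted p 0.106). They overlapped on the control diet at that hour, at 371, 1135, 517 and 723 CPM in WT and 304, 304, 281 and 543 CPM in GRLKO (log2 fold change -0.94, SE 0.34, adjusted p 0.310), with the fourth GRLKO liver the highest of its group.

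Errfi1 averaged 488 ± 211 at ZT0, 702 ± 186 at ZT4, 1012 ± 322 at ZT8, 2441 ± 120.3 at ZT12, 863 ± 216 at ZT16 and 857 ± 410.0 at ZT20 CPM in WT on caloric restriction (mean ± SD, adjusted p 3.96e-04) and 289 ± 45.9 at ZT0, 348 ± 282 at ZT4, 486 ± 134 at ZT8, 819 ± 87.4 at ZT12, 642 ± 65.5 at ZT16 and 299.9 ± 164 at ZT20 in GRLKO (adjusted p 0.0458). In both genotypes ZT12 stood clear of the next level, and the lower neighbours overlapped. The averages on the control diet were 675 ± 51.0 at ZT0, 478 ± 22.0 at ZT4, 686 ± 332 at ZT8, 1345 ± 151 at ZT12, 974 ± 169 at ZT16 and 788 ± 244 at ZT20 in WT (adjusted p 0.00251) and 561 ± 95.1 at ZT0, 359.6 ± 188 at ZT4, 358 ± 124 at ZT8, 637 ± 88.6 at ZT12, 607 ± 44.8 at ZT16 and 583 ± 93.8 at ZT20 in GRLKO (adjusted p 0.0552). WT livers again had ZT12 clear of ZT16, and ZT4 was the lowest and clear of ZT0, while all neighbours overlapped in GRLKO, where edgeR did not call the time effect. DESeq2 (adjusted p 0.00857), the 24-h cosine (0.0233) and the replicate number as a block (0.0314) called it. On caloric restriction the GRLKO time effect was lost without replicate number 1 (adjusted p 0.201) or 2 (0.154), and its log2 difference of 1.49 became 2.16 without number 3. The GRLKO time effect on the control diet was called without number 4 (adjusted p 0.0241). The change of the genotype effect over the day was not called (adjusted p 0.681 and 0.771).

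Dusp1 encodes a phosphatase that switches off the MAP kinases p38 and JNK, and it is also an immediate early gene of acute stimuli. It stood at 6.44, 5.72 and 10.3 CPM in the controls of the diet experiment and 32.4, 46.8 and 81.5 CPM on caloric restriction (log2 fold change 2.84, SE 0.38, adjusted p 0.00129). The restricted livers were all above the controls, and the third was well above the first. The ZT12 WT livers of the time series, where diet coincides with library batch, gave the opposite direction (-0.56, adjusted p 0.0383), and the cause was not tested. In the CORT experiment it stood at 17.5, 21.1 and 13.7 CPM in controls and 94.8, 104 and 76.8 CPM with CORT (log2 fold change 2.40, SE 0.19, adjusted p 0.00141), without overlap. The CORT effect less the caloric restriction effect was -0.46 (SE 0.45, 95% confidence interval -1.46 to 0.53, adjusted p 0.503). The summed level of 8 other immediate early genes was 42.3, 28.8 and 31.3 CPM in the diet controls and 53.4, 68.0 and 112 CPM on caloric restriction, with 6 of 7 tested called up (47.1% of all genes were called in either direction), and Ier2 was its most abundant gene in both groups. In the CORT experiment the sum was 54.6, 37.8 and 30.6 CPM in controls and 129, 157 and 92.7 CPM with CORT, with 4 of 7 called up (8.11% of all genes called). In GRLKO at ZT12 on caloric restriction 2 of 7 were called up (median log2 fold change -0.43, 15.3% of all genes called). The third restricted liver was highest in both the sum and Dusp1, and the part of a general immediate early response in the Dusp1 values was not tested.

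With all livers, edgeR called no genotype effect on Dusp1 at any hour on either diet, and DESeq2 called the effect at ZT12 on the control diet (-1.22, adjusted p 0.0315). At ZT12 on caloric restriction it stood at 20.2, 26.1 and 31.2 CPM in WT and 17.3, 12.9 and 28.6 CPM in GRLKO livers (log2 fold change -0.41, SE 0.29, adjusted p 0.381, 95% confidence interval -1.09 to 0.27). The third GRLKO liver was above the second WT liver. The control diet at ZT12 gave 45.5, 29.5, 36.7 and 38.5 CPM in WT and 33.7, 9.48, 11.3 and 10.2 CPM in GRLKO (log2 fold change -1.22, SE 0.39, adjusted p 0.204, 95% confidence interval -2.10 to -0.33). Of the GRLKO livers 3 were far below all WT livers and replicate 1 fell within the WT range. Without that replicate the effect was -1.87 and called (adjusted p 0.00184). The interaction with diet at ZT12 was 0.82 (SE 0.57, 95% confidence interval -0.40 to 2.05, adjusted p 0.559). At the other hours the genotypes overlapped on both diets, with log2 fold changes from -0.57 to 0.45.

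Over the day, Dusp1 averaged 4.59 ± 1.61 at ZT0, 5.04 ± 2.08 at ZT4, 6.43 ± 3.45 at ZT8, 25.8 ± 5.50 at ZT12, 11.9 ± 3.42 at ZT16 and 5.30 ± 2.43 at ZT20 CPM in WT on caloric restriction (mean ± SD, adjusted p 2.67e-04) and 3.09 ± 1.253 at ZT0, 3.45 ± 0.889 at ZT4, 5.01 ± 1.79 at ZT8, 19.6 ± 8.11 at ZT12, 11.4 ± 0.350 at ZT16 and 4.77 ± 3.71 at ZT20 in GRLKO (adjusted p 4.71e-04). In both genotypes ZT12 stood clear of ZT16, and the span was 5.62-fold in WT and 6.35-fold in GRLKO. Control-diet averages were 10.9 ± 6.60 at ZT0, 11.7 ± 6.16 at ZT4, 5.11 ± 3.01 at ZT8, 37.6 ± 6.57 at ZT12, 22.0 ± 9.16 at ZT16 and 22.3 ± 9.47 at ZT20 in WT (adjusted p 4.39e-04) and 10.3 ± 2.27 at ZT0, 10.98 ± 6.98 at ZT4, 6.95 ± 5.66 at ZT8, 16.2 ± 11.7 at ZT12, 18.3 ± 4.95 at ZT16 and 19.4 ± 3.38 at ZT20 in GRLKO (adjusted p 0.189). All neighbouring levels overlapped there in both genotypes, and with all livers the time effect in GRLKO was not called by edgeR. It was called without replicate number 4 (adjusted p 0.0407), and on caloric restriction the GRLKO time effect was lost without number 3 (adjusted p 0.0529). The change of the genotype effect over the day was not called on caloric restriction (adjusted p 0.984) or the control diet (adjusted p 0.786).

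The members were compared with each other over the 24 group means of the time series, as log2 CPM with each gene centred within its diet. These points share libraries in groups and library batches in diets, so the Pearson correlations are descriptions. Between pairs without Sgk1 the correlation ran from 0.521 to 0.886, the highest for Errfi1 and Fkbp5. Pairs with Sgk1 ran from 0.162 to 0.283. Sgk1 thus stood apart from the other 5 in its pattern over groups. Among 8872 genes with a mean of at least 5 CPM, those most like Fkbp5 in this measure were St3gal5 (0.948), Gfra1 (0.933) and Pptc7 (0.922), with the correlation in parentheses. Most like Tsc22d3 were Ttpal (0.919), Fgf1 (0.915) and Tcim (0.910), and most like Zbtb16 were Cdip1 (0.924), Il1r1 (0.884) and ENSMUSG00000029333 (0.881), the last without a symbol. Sgk1 had no close match, with Magi3 (0.680), Vipr1 (0.670) and Frmd4b (0.662) the nearest. Errfi1 was nearest to Mfsd2a (0.940), Kcnk5 (0.928) and Ppp2r5e (0.911), and Dusp1 to Klf3 (0.914), Tat (0.911) and Cluap1 (0.889).

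Other genes of the pathway were followed as lists, described by counts and medians. Of 20 further genes known to be induced by glucocorticoids, 13 of 20 tested were called up and 4 down on caloric restriction, with a median log2 fold change of 0.91, where the members had 6 of 6 and 2.01. With CORT 12 of 19 were called up and 0 down (median 2.04). In GRLKO at ZT12, 14 of 20 were called down and 1 up on caloric restriction (median -1.24), and 4 of 17 down on the control diet (median -0.52). Of 16 genes of the liver known as GR targets, 15 were called up and 1 down on caloric restriction (median 1.36), and 9 up and 1 down with CORT (median 1.76). In GRLKO at ZT12, 13 of the 16 were called down on caloric restriction (median -1.11) and 6 on the control diet (median -0.84). Median log2 fold changes over all genes tested in these 4 comparisons lay between -0.01 and 0.00. Over all genes tested, 47.1% were called on caloric restriction, 8.11% with CORT, and at ZT12 in GRLKO 15.3% on caloric restriction and 2.08% on the control diet. Differences between the members and the lists were not tested. Both were chosen with earlier results of these data known, so their shares called are descriptions and no independent support.

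Values are named for the 3 genes of each list with the largest log2 fold change among those called at ZT12, as group means with SD, WT before GRLKO and control before treatment. On caloric restriction Mt2 stood at 31.7 ± 9.67 and 1.85 ± 1.05 CPM (log2 fold change -4.11, adjusted p 0.00149), Fam107a at 16.3 ± 2.43 and 0.429 ± 0.391 CPM (log2 fold change -5.23, adjusted p 8.50e-04) and Sult1e1 at 3.24 ± 1.92 and 0.0590 ± 0.0578 CPM (adjusted p 0.00589), the last without a fold change because its mean in GRLKO was under 3 counts. Among the liver targets, Lpin1 stood at 604 ± 129 and 36.8 ± 18.4 CPM (log2 fold change -4.04, adjusted p 0.00149), Igfbp1 at 353 ± 239.6 and 28.5 ± 9.97 CPM (log2 fold change -3.64, adjusted p 0.00508) and Pfkfb3 at 33.0 ± 9.98 and 3.44 ± 1.57 CPM (log2 fold change -3.27, adjusted p 0.00193). All of these were lower in GRLKO. Genes of the first list on the control diet were Cebpd at 5.59 ± 1.40 and 2.55 ± 0.394 CPM (log2 fold change -1.13, adjusted p 0.0387), Pim3 at 98.2 ± 19.6 and 46.9 ± 9.55 CPM (log2 fold change -1.07, adjusted p 0.0159) and Per1 at 71.3 ± 15.3 and 34.7 ± 9.33 CPM (log2 fold change -1.04, adjusted p 0.0332). Liver targets there were Mfsd2a at 117 ± 20.6 and 11.5 ± 2.58 CPM (log2 fold change -3.36, adjusted p 5.05e-05), Pfkfb3 at 45.9 ± 19.1 and 14.7 ± 1.59 CPM (log2 fold change -1.65, adjusted p 0.0234) and Sds at 448 ± 50.3 and 201 ± 25.6 CPM (log2 fold change -1.16, adjusted p 0.00133). On this diet the calls of Pfkfb3, Cebpd, Pim3 and Per1 were lost when single livers were left out, with adjusted p up to 0.0792, 0.114, 0.0530 and 0.0957. With the replicate number as a block they were lost too (adjusted p 0.0629, 0.175, 0.0655 and 0.0677). Of the receptor machinery (15 genes, 14 tested), 1 was called down and 2 up in GRLKO at ZT12 on caloric restriction, where Serpina6, which encodes the corticosteroid-binding globulin of blood, stood at 458 ± 108 and 2001 ± 171 CPM (log2 fold change 2.12, adjusted p 6.56e-04) and Nr3c2, the mineralocorticoid receptor, at 6.97 ± 1.49 and 13.2 ± 1.04 CPM (log2 fold change 0.91, adjusted p 0.0135). Without WT replicate 3 the Nr3c2 call was lost (adjusted p 0.0536). Of the same genes, 1 was called down on the control diet, Nr3c1 itself, and 1 up, Serpina6 at 316 ± 30.5 and 510.1 ± 68.3 CPM (log2 fold change 0.68, adjusted p 0.0157), which was lost without WT replicate 2 (adjusted p 0.0605), WT replicate 3 (0.0534) or GRLKO replicate 1 (0.0522).

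In the diet experiment the same rule named Fam107a at 0.250 ± 0.0832 and 14.3 ± 2.34 CPM (log2 fold change 5.82, adjusted p 3.33e-05), Ddit4 at 2.71 ± 0.280 and 138 ± 18.1 CPM (log2 fold change 5.66, adjusted p 9.98e-06) and Sult1e1 at 0.164 ± 0.135 and 6.93 ± 2.01 CPM (log2 fold change 5.37, adjusted p 3.07e-04). Liver targets were Pdk4 at 2.67 ± 0.284 and 123 ± 121 CPM (log2 fold change 5.53, adjusted p 0.00149), Igfbp1 at 28.5 ± 13.8 and 984 ± 389 CPM (log2 fold change 5.11, adjusted p 4.25e-04) and Tat at 901 ± 179 and 7047 ± 1211 CPM (log2 fold change 2.96, adjusted p 1.22e-04). Of the receptor machinery, 7 of 14 tested were called up and 2 down on caloric restriction, where 47.1% of all genes were called, among them Srd5a1 at 109.7 ± 9.58 and 26.7 ± 3.34 CPM (log2 fold change -2.04, adjusted p 8.67e-05), Nr3c2 at 19.3 ± 1.22 and 6.37 ± 0.137 CPM (log2 fold change -1.60, adjusted p 7.66e-05) and Akr1d1 at 166 ± 23.3 and 312 ± 64.4 CPM (log2 fold change 0.91, adjusted p 0.00405). With CORT the genes were Mt2 at 0.982 ± 0.614 and 462 ± 187 CPM (log2 fold change 8.86, adjusted p 9.15e-04), Mt1 at 3.07 ± 1.68 and 450.1 ± 173 CPM (log2 fold change 7.19, adjusted p 0.00121) and Fam107a at 0.564 ± 0.225 and 76.7 ± 47.3 CPM (log2 fold change 7.08, adjusted p 0.00165). Among liver targets CORT named Igfbp1 at 3.97 ± 2.63 and 386 ± 458 CPM (log2 fold change 6.59, adjusted p 0.0172), Lpin1 at 24.4 ± 32.6 and 552 ± 172 CPM (log2 fold change 4.51, adjusted p 0.0374) and Pfkfb3 at 9.90 ± 6.82 and 111 ± 33.2 CPM (log2 fold change 3.496, adjusted p 0.00894). The first 2 of these spread widely within groups, and their calls were lost without single livers (adjusted p up to 0.0844 and 0.118), as was that of Pfkfb3 without control replicate 2 (0.0551), and Lpin1 was lost with the replicate number as a block (0.0660). Of the machinery, 0 were called up and 4 down with CORT by edgeR, among them the chaperones Hsp90aa1 at 398 ± 37.4 and 159 ± 40.0 CPM (log2 fold change -1.33, adjusted p 0.00879), Stip1 at 121 ± 4.22 and 65.6 ± 12.4 CPM (log2 fold change -0.89, adjusted p 0.0130) and Fkbp4, which competes with Fkbp5 for HSP90, at 249 ± 19.1 and 147 ± 14.2 CPM (log2 fold change -0.76, adjusted p 0.0108). Without control replicate 2 the calls of Stip1 (adjusted p 0.0660) and Fkbp4 (0.0565) were lost.

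Since all 6 members rose with hormone, their promoters were searched for the letters GR binds. RefSeq promoter windows of 300 bases in build GRCm38.p6, from 250 before to 50 after a transcript start, were at hand for 5 of the 6 members, 13 windows in all, and for Zbtb16 there was none. The search was for AGAACA, a single arm of the glucocorticoid response element, on either strand, and for the full palindrome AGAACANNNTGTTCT, which contains that arm in both orientations. The arm was found in 4 of the 13 windows, 3 of 6 for Sgk1 and 1 of 3 for Tsc22d3, and in 19.0% of 32851 windows of all genes. The palindrome was in 1 member window, of Sgk1, and in 3 of the 32851 windows (0.00913%), the others being those of Acnat2 and Gm35041. In Sgk1 it lies at chr10:21993701-21993715, starting 189 bases before the transcript start. A match is a description of letters, and whether GR binds there was not analysed here. The stretch of the Sgk1 window (chr10:21993640-21993889, plus strand) and that of the Tsc22d3 window (chrX:140600663-140600772, minus strand) are printed because they hold the arm in genes that rose, read 5′ to 3′ with each arm in capitals.
Sgk1: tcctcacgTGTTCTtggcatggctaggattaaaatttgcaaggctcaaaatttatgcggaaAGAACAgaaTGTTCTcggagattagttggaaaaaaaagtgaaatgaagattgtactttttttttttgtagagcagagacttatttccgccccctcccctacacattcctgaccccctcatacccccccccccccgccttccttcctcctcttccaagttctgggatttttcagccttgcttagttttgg
Tsc22d3: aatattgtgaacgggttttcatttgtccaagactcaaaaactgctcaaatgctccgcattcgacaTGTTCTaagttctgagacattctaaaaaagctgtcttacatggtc

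Marker lists of liver cell types were summed in each group, as mean CPM ± SD. For the counts called below, 47.1% of all genes tested were called in either direction in the diet experiment and 8.11% with CORT. In GRLKO at ZT12 these shares were 15.3% on caloric restriction and 2.08% on the control diet. On the control diet they were 0.536% at ZT0, 0.195% at ZT4 and 1.43% at ZT8. The hepatocyte list (7 genes, 6 matched, Alb the most abundant) summed to 91796 ± 2409 in diet controls and 157418 ± 1595 on caloric restriction, and to 99175 ± 1972 in CORT controls and 99321 ± 5799 with CORT. Most of the sum is Alb, and over the list the median log2 fold change was 0.19 on caloric restriction (2 of 6 called up) and 0.28 with CORT (1 of 6 up). At ZT12 it summed to 169574 ± 3236 in WT and 129099 ± 7606 in GRLKO on caloric restriction, with 4 of 6 called down, and to 88999 ± 8331 and 77199 ± 8543 on the control diet, with 2 of 6 down. The Kupffer cell list (6 genes, Clec4f the most abundant) stood at 35.5, 58.3 and 41.3 CPM in WT and 104, 79.3 and 103 CPM in GRLKO livers at ZT12 on caloric restriction, with 3 of 6 called up. Kupffer markers on the control diet averaged 52.6 ± 12.0 in WT and 52.8 ± 9.25 in GRLKO, with 0 of 6 called by edgeR. Kupffer markers averaged 62.2 ± 9.81 in CORT controls and 93.0 ± 13.7 with CORT, with 2 of 6 called up. Endothelial markers (6 genes) summed to 164 ± 13.6 and 209 ± 15.5, stellate markers (6 genes) to 235 ± 24.3 and 217 ± 20.7 and cholangiocyte markers (5 genes) to 28.9 ± 2.41 and 32.0 ± 0.475 in WT and GRLKO at ZT12 on caloric restriction. Called there were 1 of 6 endothelial genes up and 1 of 3 cholangiocyte genes down. In the diet experiment, where all 6 members rose, the endothelial sum was 141 ± 15.2 in controls and 201 ± 14.4 on caloric restriction, with 4 of 6 called up (median log2 fold change 0.54). Of the cholangiocyte genes 2 of 4 tested were called up there, and of the stellate genes 2 of 6 up and 2 down. Of the Kupffer genes 1 of 6 was called down, and of the lymphocyte genes 2 of 4 down. Of the adipocyte genes 1 of 1 tested was called up (log2 fold change 1.12). CORT lowered 1 endothelial, 1 stellate and 1 cholangiocyte gene among those called. Lymphocyte (6 genes) and neutrophil (5 genes) markers were near 0 in WT at ZT12 on caloric restriction, at 0.609 ± 0.218 and 0.0188 ± 0.0326, and the adipocyte list (5 genes) was at 6.40 ± 1.81, nearly all of it Fabp4. On the control diet the adipocyte sum was higher in GRLKO than in WT. At ZT12 it was 3.53 ± 0.455 in WT, of which Fabp4 was 3.44. In GRLKO it was 15.4 ± 15.5 (5.73 to 38.3), of which Cfd alone was 11.9. At ZT16 Fabp4 was the most abundant in both, at 4.59 in WT and 3.63 in GRLKO. Of 2 genes tested, 1 was called up at each of ZT0, ZT4, ZT8 and ZT12 (median of the 2 log2 fold changes 3.69 at ZT12). The sum thus follows Cfd more than the list as a whole. Exocrine pancreas markers (5 genes) were near 0 except in WT replicate 3 at ZT12 on caloric restriction (759 CPM) and WT replicate 2 at ZT16 on the control diet (492 CPM). Without the first of these the same comparison called 4 members, as with it, and Fkbp5, Tsc22d3 and Zbtb16 were called at ZT16 without the second. The part of cell composition in the member values was not tested.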

How the data were processed

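Each library is polyA RNA of a whole liver, and the deposited tables hold, per gene, an estimated count that the authors made with Salmon and tximport. The 4 tables hold 27654 gene IDs, of which 410 have no symbol (0.107% of all counts), and members were taken by symbol. The tables' 6 columns of variance-stabilised values were not used here. Estimated counts were rounded and fitted with edgeR 4.0.16 (quasi-likelihood F test, TMM scaling, filterByExpr with a minimum count of 10) in R 4.3.3, each comparison on its own libraries. P-values were adjusted over all genes tested by the Benjamini-Hochberg method. CPM was scaled within each table. Alternatives were DESeq2 1.42.0, RLE scaling, no filter on low counts, the replicate number as a block, leaving out libraries, a single fit of all time-series libraries of a diet, the time-series livers at ZT12 for the diet effect, and a 24-h cosine for time. Scripts were tested on simulated data, where a larger share of false calls was allowed for DESeq2 than for edgeR. Members and lists were chosen with earlier results of these data known.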

Additional observations from a re-analysis of the deposited data

Results flagged for a closer look

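Some livers stood far from the others of their group, by the gap to the nearest value over the range. Fkbp5 was at 24.4 CPM in WT replicate 4 at ZT20 on the control diet, and Zbtb16 at 41.7 CPM in WT replicate 1 of the same group. Errfi1 was at 543 CPM in GRLKO replicate 4 at ZT8 on the control diet. Dusp1 was at 33.7 CPM in GRLKO replicate 1 at ZT12 on the control diet. Only groups of 4 livers were looked at, all of them on the control diet, for the members and Nr3c1. Of these 42 sets, 4 held such a value. By chance the rule flags about 1 in 20 unrelated sets. The sets here share livers between genes, so no conclusion is drawn from the count.

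Other results are listed because an effect differed between groups by a test of the difference. For Tsc22d3 the genotype effect at ZT16 was 0.94 higher on caloric restriction than on the control diet on the log2 scale, which was not called with the replicate number as a block (adjusted p 0.101). Genotype effects changed over the day by up to 2.04 for Fkbp5, 1.71 for Tsc22d3 and 2.82 for Zbtb16 on caloric restriction. Of these, the Fkbp5 call was lost without replicate number 1 (adjusted p 0.0786), 2 (0.202) or 3 (0.150) and with a 24-h cosine (0.0660), and the Zbtb16 call without number 1 (0.165) and with the cosine (0.132). The same differences on the control diet were 1.87 for Fkbp5, 2.16 for Tsc22d3 and 3.24 for Zbtb16. They were lost without replicate number 1 (0.0836) or 2 (0.0838) for Fkbp5, 1 (0.0510), 2 (0.443) or 3 (0.0734) for Tsc22d3, and 2 (0.196), 3 (0.188) or 4 (0.0615) for Zbtb16, and with the cosine for Zbtb16 (0.0947). For Errfi1 the CORT effect was 0.75 higher than the caloric restriction effect.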

How the results depend on the processing

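Over the 27 comparisons, RLE scaling left all 162 calls of a member by comparison as they were. Without a filter on low counts 161 stayed and 1 was gained, Errfi1 at ZT16 on the control diet (adjusted p 0.0494). DESeq2 kept 147 and gained 15. By DESeq2 the members called in GRLKO against WT were 2 at ZT0 (0 by edgeR), 3 at ZT4 (1), 2 at ZT16 (1) and 2 at ZT20 (0) on caloric restriction, and 1 at ZT0 (0), 5 at ZT12 (4), 5 at ZT16 (3) and 1 at ZT20 (0) on the control diet. Of all genes DESeq2 called 439 (61), 435 (83), 929 (541) and 663 (178) in these comparisons on caloric restriction and 411 (63), 569 (238), 634 (232) and 298 (50) on the control diet, so the counts over all genes rose as well. For genotype by diet at ZT8 DESeq2 called 2 members (0) and 119 of all genes (10), and for time in GRLKO on the control diet 5 members (4) and 5862 of all genes (5231). With a single fit of all libraries of the diet, 3 were called at ZT20 on caloric restriction (0) and 2 at ZT20 on the control diet (0), among 1127 (178) and 387 (50) of all genes. A 24-h cosine called 1 member for genotype by time on caloric restriction (3) and 2 on the control diet (3), and for time points 5 in WT (6) and 5 in GRLKO (6) on caloric restriction and 5 in GRLKO on the control diet (4). Over all genes the cosine called 130 (696) and 48 (77) for genotype by time and 6762 (8123), 6312 (7713) and 6361 (5231) for these time points. The cause was not tested.

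With the replicate number as a block, 0 members were called at ZT4 on caloric restriction in GRLKO against WT (1 without the block), 2 at ZT16 on the control diet (3), and 0 for genotype by diet at ZT16 (1), where Tsc22d3 had an adjusted p of 0.101. For time points in WT on the control diet 5 were called with the block (6), Sgk1 being lost (adjusted p 0.0516), and in GRLKO on that diet Zbtb16 was lost (0.0585) and Errfi1 gained (0.0314). All genes called with the block fell to 13 (83), 32 (232) and 11 (29) in the first 3 of these, and were 5948 (6244) and 4631 (5231) for the time points. The counts of 0 are from edgeR. In the 14 comparisons of 2 groups, livers with the same replicate number were correlated between groups over the genes tested, as log2 CPM less the group mean. The correlations ran from -0.122 to 0.115, and in 0 comparisons were all of them over 0.1. This was not looked at for the interactions or time points. The cause was not tested.

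Leaving out livers gave lowest to highest counts of members called of 0 to 1 at ZT4, 1 to 3 at ZT8 and 0 to 1 at ZT20 on caloric restriction and 4 to 5 at ZT12 and 2 to 4 at ZT16 on the control diet in GRLKO against WT. Over all genes the same runs called 13 to 127, 56 to 315 and 16 to 194, and 137 to 199 and 84 to 183. For genotype by diet at ZT8 the range was 0 to 1, for CORT 5 to 6 and for the CORT effect less the caloric restriction effect 1 to 2, with 4 to 35, 206 to 1008 and 2079 to 3229 of all genes. For time points it was 5 to 6 in WT and 3 to 4 in GRLKO on caloric restriction, and 5 to 6 in WT and 1 to 5 in GRLKO on the control diet, with 4984 to 5729, 4413 to 5894, 4064 to 4906 and 2699 to 4761 of all genes. For genotype by time it was 1 to 2 on caloric restriction and 0 to 2 on the control diet, with 89 to 296 and 5 to 48 of all genes. Fewer livers were fitted in these runs.

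With the time-series livers at ZT12, where diet coincides with library batch, the diet effect reversed for Dusp1 (log2 fold change -0.56, adjusted p 0.0383) and for Nr3c1 (0.25, adjusted p 0.0328), and the cause was not tested. Dusp1 rose in the diet experiment itself, where the diets were in a single table. Groups of 3 or 4 livers limit what a test can call. Cell types of whole liver cannot be separated, levels of hormone in blood were not used here, and transcription and RNA stability cannot be told apart.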
